A study of Ovis aries with 5 samples.

Results

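The regions described here were peaks of H3K4me3 in sheep perirenal fat that overlapped neither an H3K27ac nor an H3K27me3 region. They were chosen by the lists of peaks that the authors deposited as found in both replicates. A region was a member if it lay on chromosomes 1 to 26, was under 8000 bp long and shared no base with a region of the joint H3K27ac list or of the joint H3K27me3 list. Of the 16098 regions in the joint H3K4me3 list, 14729 met the conditions on chromosome and length, and 4803 of these were members (32.6%, 95% Wilson interval 31.9 to 33.4%). The other 9926 were 8064 regions with H3K27ac, 1500 with H3K27me3 and 362 with both. The members covered 13.3 Mb, which was 24.8% of the length of the joint H3K4me3 list.

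H3K4me3 is a methylation mark laid on nucleosomes around the start sites of genes. H3K27ac is an acetylation mark found at promoters and enhancers in use, and H3K27me3 is the mark of Polycomb repression, so a promoter with H3K4me3 usually also carries one or the other. Perirenal fat, the fat around the kidney, is largely brown at late gestation in sheep and produces heat after birth.

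The tissue came from untreated wild type, pure bred Merino fetuses at 132 days of gestation, from ewes fed at maintenance. H3K4me3 and H3K27ac were each measured by ChIP-Seq, the sequencing of nucleosomal DNA pulled down by an antibody, in 2 libraries. These are called replicate 1 and replicate 2 after the 2 fetuses. The methods of the study give an earlier day of gestation, and more animals for H3K4me3, than the labels used here. The same fetus gave replicate 1 of both marks, and the other gave replicate 2. After removal of duplicates, the H3K4me3 libraries held 92.88 and 109.7 M tags, the H3K27ac libraries 144.0 and 145.7 M, and the input pooled over fetuses, which served as control for all, 26.65 M. The joint H3K27me3 list holds positions only, and the per-library values of that mark were left out, so its strength was not analysed here. The absence of H3K27me3 was read from the joint list alone and was not checked per library. The regions were not tied to genes, because positions are on Oar_v3.1 and no gene annotation of that build was used. Regions are not replicates, so counts and medians over them are given as descriptions. The intervals account for counting error, while the spread between animals is outside them. With 2 animals, an exact two-sided permutation test on paired values cannot give a p below 0.5, and none was run.

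The absence of acetylation did not hold for most members when H3K27ac was read from each library in place of the joint list. Of the 4803 members, 2919 (60.8%, interval 59.4 to 62.1%) overlapped an H3K27ac peak that MACS had called in at least 1 library, at any FDR. The members are therefore called by their rule, as regions outside both joint lists. Those without an H3K27ac peak in either library numbered 1884, which was 39.2% of members (interval 37.9 to 40.6%). A peak of replicate 1 alone overlapped 1732 members (36.1%), and a peak of replicate 2 alone overlapped 251 (5.23%). Peaks of both libraries overlapped the remaining 936 (19.5%).

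The rule itself used H3K27ac, so the same shares over all 14729 H3K4me3 regions are given only as a frame. Of those, 77.1% overlapped a peak of replicate 1, 64.7% a peak of replicate 2 and 62.6% peaks of both. A peak of replicate 1 alone overlapped 14.5%, a peak of replicate 2 alone 2.05%, and no peak of either library 20.8%. In a piece of tissue, a lower signal from every cell and a mark in fewer of the cells cannot be told apart.

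**Figure D1:**
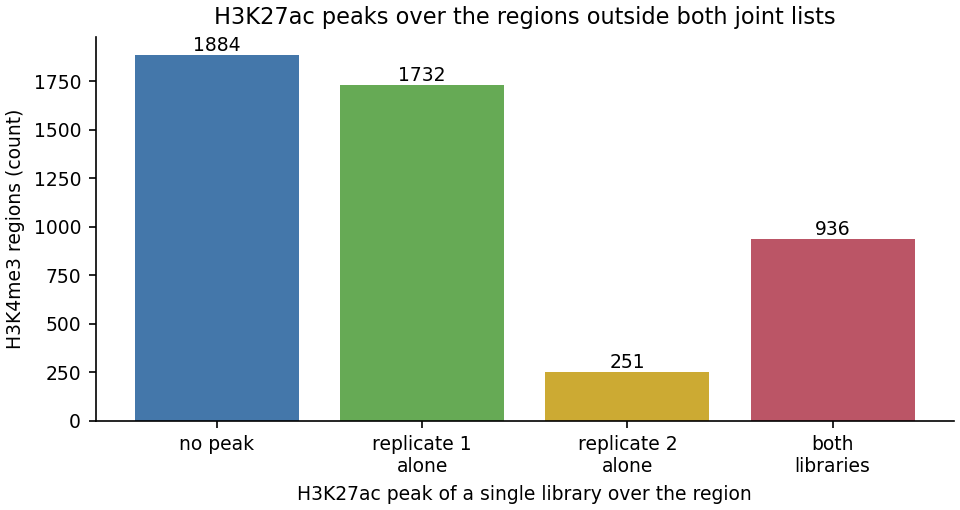
The bars give the number of H3K4me3 regions outside both joint lists (vertical axis, count) by the H3K27ac peaks that overlapped them in the single libraries (horizontal axis). The bars without a peak (1884) and with a peak of replicate 1 alone (1732) are the tallest, and that of replicate 2 alone (251) is the lowest.

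The 936 members with H3K27ac peaks in both libraries had H3K27ac peaks of high score. MACS gives each peak a score, the negative logarithm of its p-value, so a higher score is a stronger peak. The strongest H3K27ac peak over each of these members had median scores of 582 and 520 in replicates 1 and 2, against 192 and 146 over the H3K4me3 regions with joint H3K27ac. Fold enrichment over the input had medians of 40.8 and 39.1, against 32.0 and 29.6. The rule fixes these contrasts in part, since the joint list holds peaks within an FDR limit and the strongest H3K27ac peaks named here had the highest FDR, so nothing is read from them. They were also long, with a median of 7808 and 7170 bp, and covered at least 50% of the H3K4me3 region in 99.3 and 96.7% of cases. MACS estimates an FDR by calling peaks with the sample and the input exchanged, and the joint list was limited to an FDR of 10%. The strongest peak exceeded 10% in both libraries for 418 of the 936 members, in replicate 1 only for 284 and in replicate 2 only for 230. In the other 4 it was within the limit in both.

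The 6 members of this kind with the highest H3K27ac score, by the lower of their 2 libraries, all had an H3K27ac FDR of 100% in each library. The first lay at chr1:177639171-177643412, with H3K27ac scores of 1518 and 1387 in replicates 1 and 2, and its H3K4me3 was enriched 45.6 and 69.6-fold. At chr3:38135010-38139863, H3K27ac was enriched 60.7 and 60.2-fold and H3K4me3 40.7 and 97.1-fold. A region at chr20:31989145-31991243 had H3K27ac at 60.2 and 57.3-fold, with H3K4me3 at only 26.2 and 36.9-fold. In each of the 3 the H3K4me3 fold enrichment was higher in replicate 2, as it was in 95.6% of the members with peaks in both libraries and in 89.2% of all regions. The other 3 lay at chr1:35964454-35972051 (50.9 and 85.7-fold), at chr10:28107554-28113604 (68.2 and 94.4-fold) and at chr10:18273106-18276095 (24.2 and 39.7-fold).

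The H3K27ac peaks seen in 1 library alone were weaker and belonged mostly to replicate 1. Over the 1732 members with a peak of replicate 1 alone, the H3K27ac peak had a median score of 77.9, a fold enrichment of 25 and a length of 2401 bp, close to the 2144 bp of the H3K4me3 regions beneath. Its summit lay a median of 308 bp from the H3K4me3 summit of the same fetus, and its FDR was within 10% in all but 12 cases. Over the 251 members with a peak of replicate 2 alone, the score was 99.5, the fold enrichment 26.7 and the length 4208 bp. The excess of replicate 1, 6.90 to 1, held on each of the 26 chromosomes, where the ratio was 2.44 or higher.

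The depth of the H3K27ac libraries was nearly equal, and so was the number of their peaks, 50977 and 49888. Over the whole autosomal genome, 11665 H3K27ac peaks of replicate 1 (23.1%) and 9396 of replicate 2 (19.0%) overlapped none of the other library. Of these single peaks, 2130 of replicate 1 (18.3%) and 340 of replicate 2 (3.62%) overlapped an H3K4me3 region under 8000 bp. The excess of replicate 1 among single peaks was therefore 6.90 to 1 over the members and far smaller over the genome. It was not particular to the members. Over all 14729 H3K4me3 regions, members included, 2134 had an H3K27ac peak of replicate 1 alone and 302 one of replicate 2 alone. Over the 8064 regions with joint H3K27ac, where such peaks were rare, these counts were 122 and 17. The excess was also present over the H3K4me3 regions with H3K27me3. There, 266 of 1500 (17.7%) had an H3K27ac peak of replicate 1 alone and 32 (2.13%) one of replicate 2 alone. Whether it came from the animal or from the immunoprecipitation cannot be told apart, as each fetus gave 1 library.

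Median H3K4me3 was lower over the members than over acetylated regions in both fetuses, in fold enrichment, tags and score. For each region the strongest peak with an FDR of at most 1% was taken in each library. Median fold enrichment over the input was 51.7 in replicate 1 (quartiles 43.1 and 60.1) and 65.2 in replicate 2 (quartiles 52.8 and 78.4). The H3K4me3 regions with joint H3K27ac had medians of 57.9 and 79.5, and those with H3K27me3 50.1 and 53.6. Median tags were 427 and 560 over members in replicates 1 and 2, against 541 and 872.5 over the acetylated regions. Median scores were 492.2 and 548, against 702.8 and 1034. Median length was 2279 bp over members and 2725 bp over the acetylated regions. In fold enrichment, members were below the acetylated regions in both fetuses. In replicate 1 this gap was smaller than the gap between the fetuses, and in replicate 2 it was of about the same size. Both classes were read from the same library in each fetus. The gap between the fetuses is therefore no measure of error for the gap between the classes.

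H3K4me3 also varied within the members. The 1884 members without a peak had median fold enrichments of 48.2 and 59.1, a median length of 1896 bp and 352 and 446 tags. Members with a peak of replicate 1 alone were at 54.0 and 65.5-fold, with 451 and 535.5 tags over 2144 bp. Members with a peak of replicate 2 alone were at 47.8 and 63.9-fold over 2583 bp. The 936 members with peaks in both libraries reached 57.9 and 82.5-fold, with 726.5 and 1429 tags over 4149 bp. A length below 2000 bp was found in 54.4% of the members without a peak, in 10.0% of those with peaks in both libraries and in 27.8% of the acetylated regions. Length differed between these groups, and a short region offers fewer bases to overlap. Among regions of 1500 to 2500 bp, the members without a peak were at 49.3 and 60.5-fold, those with peaks in both libraries at 45.2 and 66.5-fold, and the acetylated regions at 55.6 and 75.2-fold. This band held 148 of the 936 members with peaks in both libraries, 686 members without a peak and 2469 acetylated regions. The high values of the members with peaks in both libraries were thus not seen in the 148 of this length. These were below the acetylated regions in both fetuses. They were below the members without a peak in replicate 1 and above them in replicate 2.

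**Figure D2:**
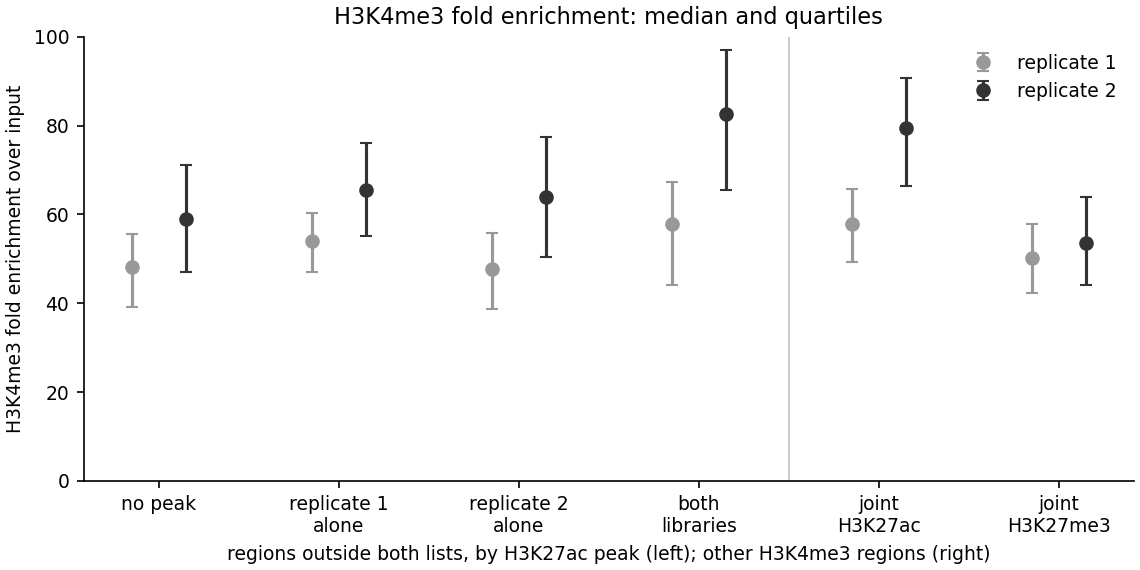
Points give the median and bars the lower and upper quartile of H3K4me3 fold enrichment over the input (vertical axis, ratio) in replicate 1 (grey) and replicate 2 (black), for 4 kinds of regions outside both joint lists and for 2 other classes of H3K4me3 regions. Replicate 2 lies above replicate 1 throughout, by most in regions with H3K27ac peaks in both libraries (82.5 against 57.9) and by least in regions of the joint H3K27me3 list (53.6 against 50.1).

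The ratio of H3K4me3 between the 2 fetuses differed between the groups of members set by their H3K27ac peaks. Tags were divided by the total of each library and replicate 2 was set against replicate 1. The median ratio over all members was 1.15 (quartiles 0.938 and 1.43). Over all 14729 regions it was 1.26, over the acetylated regions 1.37 and over the regions with H3K27me3 0.868. It was 1.10 in members without an H3K27ac peak and 1.03 in members with a peak of replicate 1 alone. It was 1.36 in members with a peak of replicate 2 alone and 1.60 in members with peaks in both libraries. Replicate 2 was the higher in 63.7, 55.6, 84.5 and 91.2% of the regions in these 4 groups, in the same order. Members with an H3K27ac peak of 1 fetus alone thus leaned in H3K4me3 towards that fetus, relative to each other. The largest lean to replicate 2 was nevertheless in members with peaks in both libraries. Members without a peak lay near those with a peak of replicate 1 alone. Among members of 1500 to 2500 bp the ratios were 1.06, 1.02, 1.42 and 1.48, so the order between the single-library groups was as wide within that band of length. The fold enrichment in replicates 1 and 2 had a Spearman correlation of 0.66 across the 4803 members and 0.62 across the 8064 acetylated regions. Both values of a region are measured against the same input library.

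**Figure D3:**
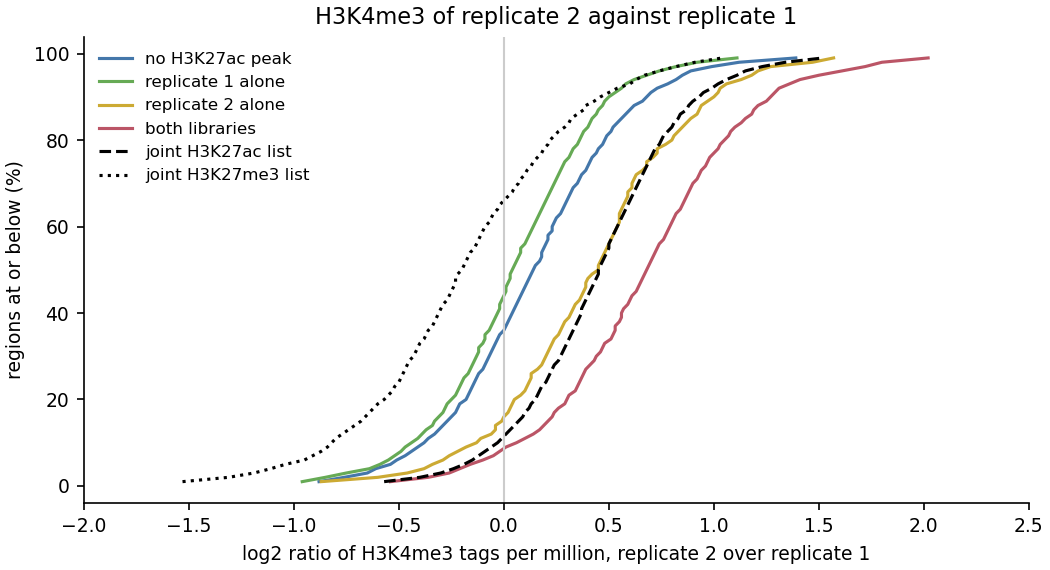
The curves give the share of regions (vertical axis, percent) at or below each log2 ratio of H3K4me3 tags, scaled to the total of each library, in replicate 2 over replicate 1 (horizontal axis). The curve for regions with H3K27ac peaks in both libraries lies farthest to the right (median ratio 1.60), and that for the joint H3K27me3 list farthest to the left (0.868).

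Single members spanned the whole range of H3K4me3 strength. The 6 of highest fold enrichment, ranked by the lower of their 2 libraries, included 4 with H3K27ac peaks in both libraries. They lay at chr1:49956336-49960079 (93.2 and 113-fold in replicates 1 and 2), at chr20:26884742-26891269 (90.8 and 104-fold), at chr8:15789474-15793199 (88.5 and 97.9-fold) and at chr3:162818613-162825064 (86.9 and 108-fold). The H3K27ac FDR of the first 3 was above 10% in replicate 2 alone, at 11.4, 14.7 and 10.97%, and the last had an FDR of 100% in each library. A region at chr3:132758514-132764825 had 84.6 and 88.9-fold H3K4me3 with an H3K27ac peak of replicate 1 alone.

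Strong H3K4me3 was also found without any H3K27ac peak. The member of highest fold enrichment among these lay at chr17:43644968-43645875, with 84.6 and 102-fold H3K4me3 from 248 and 303 tags. It was 907 bp long and lay 98 bp from another H3K4me3 region. A wider example, named after its values were seen, lay at chr16:4574713-4581774, with 83.0 and 94.7-fold H3K4me3 and 2232 and 3426 tags. It was 180 bp from the nearest joint H3K27ac region. Another, also named after its values were seen, lay at chr2:197290075-197291564 with 83.8 and 96.3-fold H3K4me3, and the nearest joint H3K27ac region was 8101 bp away.

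The members with the most tags in the lower library all had H3K27ac peaks in both. They lay at chr3:220536668-220543970 (2587 and 3049 tags), at chr15:41938470-41946055 (2398 and 2630 tags) and at chr14:48262185-48269722 (2352 and 2612 tags). The 3 shortest were the region of 509 bp at chr13:3451745-3452254, that of 536 bp at chr4:78820231-78820767 and that of 560 bp at chr3:214135685-214136245. The H3K4me3 of these 3 was enriched 49.3 and 72.0-fold, 67.3 and 73.6-fold, and 65.0 and 83.3-fold. Their tags were few, between 143 and 196 in each library. The first 2 of them had no H3K27ac peak and lay 338 and 78 bp from a joint H3K27ac region.

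The 3 longest members stood just inside the length limit and differed widely. They measured 7994 bp at chr1:15009635-15017629 (72.8 and 113-fold, H3K27ac peaks in both libraries), 7990 bp at chr1:30001679-30009669 (22.5 and 24.5-fold, no H3K27ac peak) and 7987 bp at chr15:13368488-13376475 (69.7 and 112-fold, H3K27ac peaks in both libraries). Just outside the limit were regions with neither mark of 8007 bp at chr1:139224297-139232304 (60.3 and 115-fold), 8011 bp at chr14:56688177-56696188 (37.2 and 62.8-fold) and 8105 bp at chr5:80146514-80154619 (53.5 and 47.2-fold). The regions on the 2 sides of the limit overlapped in strength.

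Many members lay near a region of the joint H3K27ac list, which by the rule none of them touched. To the nearest H3K27ac peak of a single library, the median distance was 0 bp over all members and 8740 bp over those without a peak. The nearest region of the joint H3K27ac list was a median of 12155 bp away over all members, and 1532 (31.9%) had one within 5 kb. The median distance was 19511 bp for members without an H3K27ac peak, 13452 bp with a peak of replicate 1 alone, 11569 bp with a peak of replicate 2 alone and 5730 bp with peaks in both libraries. H3K4me3 regions with H3K27me3 were farther away, at 45702 bp. The order was the reverse for H3K27me3, whose nearest region lay a median of 62278 bp from members without an H3K27ac peak and 176962 bp from members with peaks in both libraries. Of the 1884 members without a peak, 82 (4.35%) came within 1 kb of an H3K27me3 region, against 0.641% of members with peaks in both libraries and 1.39% of acetylated regions.

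Part of the members flanked another H3K4me3 region. Within 1 kb, 1303 (27.1%) had another H3K4me3 region, close to the 28.4% of acetylated regions. For 613 members (12.8%) that neighbour overlapped the joint H3K27ac list, as it did for 20.9% of acetylated regions. Of the members without an H3K27ac peak, 238 (12.6%) lay within 1 kb of such an acetylated H3K4me3 region, and these were short, with a median of 1296 bp against 1989 bp for the rest. Their H3K4me3 was enriched 50.9 and 68.1-fold, against 47.8 and 58.2-fold in the rest. Acetylated regions with such a neighbour were also shorter, with a median of 2046 bp against 2862 bp for those without.

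**Figure D4:**
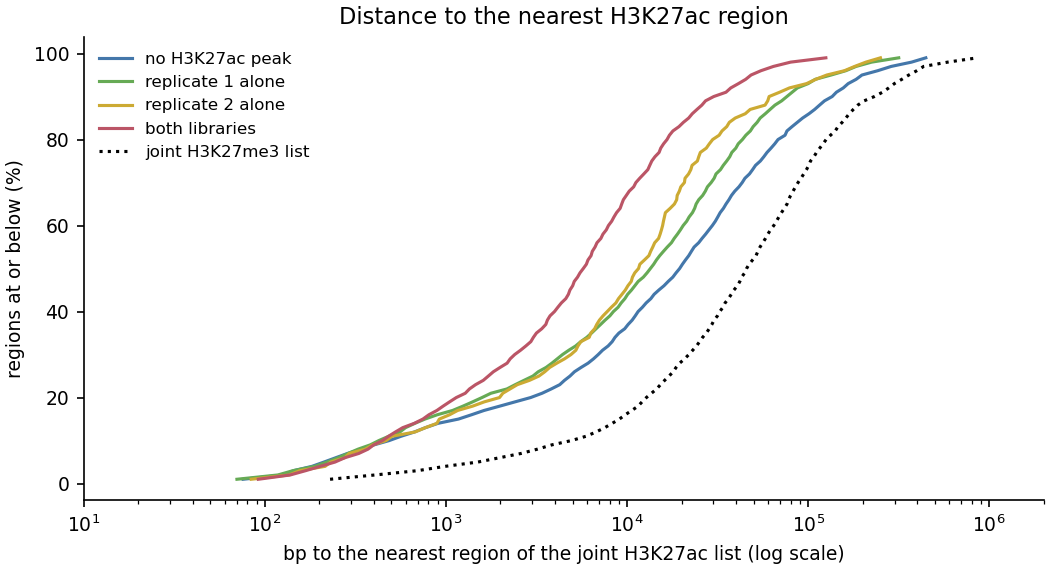
The curves give the share of regions (vertical axis, percent) that lie at or below each distance from the nearest region of the joint H3K27ac list (horizontal axis, bp on a log scale). Regions with H3K27ac peaks in both libraries are the nearest (median 5730 bp), regions without a peak are farther (19511 bp), and those of the joint H3K27me3 list are the farthest (45702 bp).

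Of the 5 members farthest from joint H3K27ac, 4 had an H3K27ac peak in at least 1 library. The farthest of all, at 1837150 bp, lay at chr1:79963641-79967692 and had 83.0 and 112-fold H3K4me3 with H3K27ac peaks in both libraries. At chr16:50234002-50235642, a member with no H3K27ac peak (58.3 and 70.7-fold) was 1273767 bp from joint H3K27ac and 1555042 bp from any other H3K4me3 region. The next, at chr4:22235374-22241054 (76.8 and 105-fold), had H3K27ac peaks in both libraries. The last 2 of the 5 farthest had an H3K27ac peak of replicate 1 alone and lay near chromosome ends, at chr6:117008293-117010198 (53.5 and 80.2-fold) and at chr15:80826343-80827778 (37.6 and 57.4-fold). The one on chromosome 15 lay 20477 bp and the one on chromosome 6 98542 bp from another H3K4me3 region. Over all members the median of this distance was 11613 bp and the upper quartile 40740 bp.

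The members were spread unevenly over the genome. Chromosome 14 had the highest share, with 416 of its 831 H3K4me3 regions outside both lists (50.1%), followed by chromosome 24 (213 of 453, 47.0%), chromosome 21 (41.6%), chromosome 5 (41.0%) and chromosome 11 (37.5%). The lowest shares were on chromosomes 23 (23.5%), 8 (25.1%) and 4 (25.2%). For members without an H3K27ac peak the share was 30.0% on chromosome 14, 20.5% on chromosome 24 and 7.71% on chromosome 7, the lowest. Chromosomes dense in H3K4me3 had more members. The share of members and the number of H3K4me3 regions per Mb had a Spearman correlation of 0.56 across the 26 chromosomes, and 0.51 without chromosome 14. Chromosome 20 went against this, with 10.1 regions per Mb and a share of 28.7%. The number of joint H3K27ac regions per Mb had a correlation of -0.01 with the share. Chromosomes share their libraries, so these are descriptions.

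**Figure D5:**
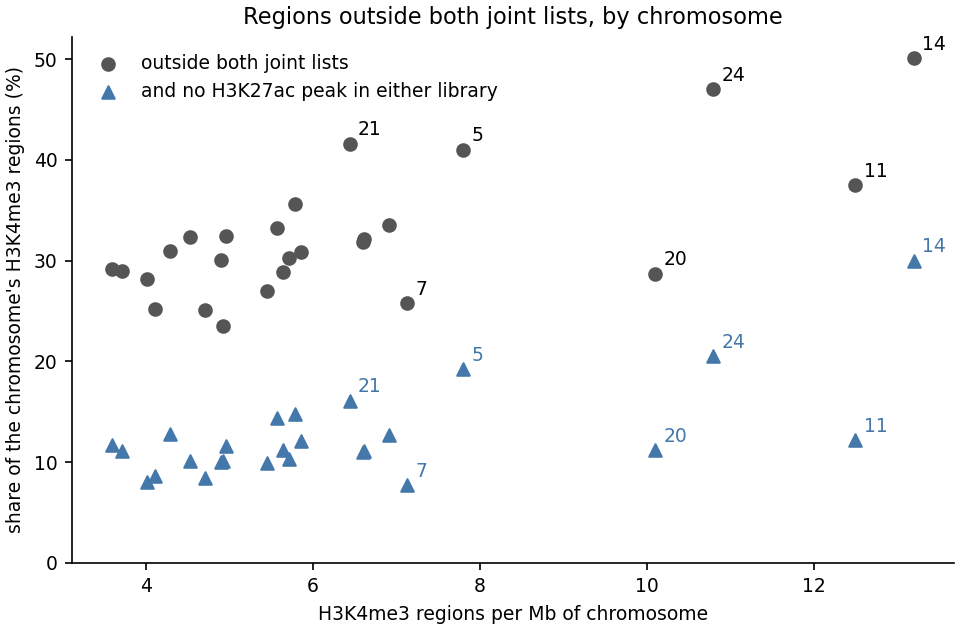
Each point is a chromosome, with its H3K4me3 regions per Mb on the horizontal axis and, on the vertical axis, the share of them (percent) that lay outside both joint lists (grey circles) or also had no H3K27ac peak in either library (blue triangles). Chromosome 14 is the highest in both (50.1 and 30.0%), and chromosome 20, nearly as dense as chromosome 24, is low (28.7%).

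The share of members was higher at the ends of chromosomes. Within 2 Mb of the last position in the lists of a chromosome, 269 of 482 H3K4me3 regions were members (55.8%, interval 51.3 to 60.2%), and within 2 Mb of the first position 132 of 275 were (48.0%, interval 42.2 to 53.9%). Elsewhere the share was 31.5% (interval 30.7 to 32.3%). Members without an H3K27ac peak made up 33.2% and 24.4% of the regions at the 2 ends and 11.9% elsewhere. Leaving out chromosome 14 gave 51.6, 47.6 and 30.6% for the members. The distance of 2 Mb was chosen after the longest runs of members had been seen.

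Members also followed one another along the chromosome. The next H3K4me3 region after a member was again a member in 40.5% of cases (interval 39.1 to 41.9%), against 32.6% over all regions. After an acetylated region it was a member in 29.6% of cases (interval 28.6 to 30.6%). For members without an H3K27ac peak, the next region was of the same kind in 22.5% of cases, against 12.8% over all regions. Runs of 5 or more consecutive members numbered 96 and held 660 members (13.7%). Acetylated regions formed more such runs, 418 with 2832 regions (35.1%), but were also more numerous, at 8064 against 4803 members. The share in runs that these numbers alone would give was not worked out. After an acetylated region the next was acetylated in 60.3% of cases, against 54.8% over all regions.

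The distal part of chromosome 14 held 3 of the 4 runs with the most members. From 57 Mb to the end at 62.7 Mb, 121 of 153 H3K4me3 regions were members (79.1%) and 100 had no H3K27ac peak in either library (65.4%). The stretch takes in these runs, so its shares are in part set by where it was drawn. The same stretch held 31 joint H3K27ac regions, or 5.42 per Mb against 13.1 per Mb over the rest of the chromosome. It held 118 joint H3K27me3 regions, or 20.6 per Mb against 13.3 per Mb. Outside the stretch, the part of chromosome 14 from 46 to 47 Mb held 29 members among 47 H3K4me3 regions, 23 of them without an H3K27ac peak. The longest run, at chr14:61582128-61985305, held 18 members, of which 16 had no H3K27ac peak, and no joint H3K27ac region. Its H3K4me3 had medians of 53.9 and 56.2-fold, above the median of all members in replicate 1 and below it in replicate 2. Runs of 16 members at chr14:62486237-62712535 (medians 48.5 and 60.7-fold) and of 14 at chr14:60521794-60847181 (51.0 and 63.5-fold) were slightly below the medians of all members in both fetuses. The run of 17 members at chr14:57209396-57642490 had weaker and longer H3K4me3 regions, with medians of 19.5 and 26.6-fold and 3965 bp. It held the lowest fold enrichment of all members, 11.7 in replicate 1 and 15.2 in replicate 2, and 16 of its members had no H3K27ac peak.

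Other runs lay at chr9:13375873-13926339 and at chr19:57877444-59017204. The former held 17 members in 550 kb, 10 of them without an H3K27ac peak, and 1 joint H3K27ac region, with medians of 54.6 and 63.1-fold. It spans the sweep region that the study names for DGAT1, HSF1 and BOP1. The latter held 14 members over 1140 kb with 6 joint H3K27ac regions between them, so it was an interspersed run, not an unacetylated block. At chr5:49818596-49873988, 7 consecutive members without an H3K27ac peak lay within 55.4 kb, with medians of 39.9 and 51.8-fold.

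The sweep regions of the study, stretches of low diversity in domestic sheep, give gene names for a few members. Of the 635 sweep regions, 48 held a member. The members in sweep regions numbered 58 (1.21%, interval 0.935 to 1.56%), against 1.35% of acetylated regions (interval 1.12 to 1.63%) and 1.28% of all 14729. The intervals of the members and of the acetylated regions overlapped, and a difference between the shares was not tested. The gene names are those the study gives for the sweep region, and the member was not placed relative to the start site of the gene.

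The genes of the main sweep table had 7 members in their sweep regions. In the region of DGAT1, the enzyme of the last step of triglyceride synthesis, HSF1, the heat shock transcription factor, and BOP1, a ribosome biogenesis factor, there were 2. They lay at chr9:13565301-13571067 (66.7 and 62.1-fold H3K4me3 in replicates 1 and 2) and at chr9:13592960-13596688 (57.2 and 71.2-fold). Each overlapped a weak H3K27ac peak of replicate 1 alone, enriched 23.6 and 22.8-fold, and the nearest joint H3K27ac region was 104973 and 132632 bp away.

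The sweep regions that name PANK2, a pantothenate kinase of coenzyme A synthesis, together with RNF24 held 3 members on chromosome 13. The member at chr13:50641213-50646583 was the strongest (56.4 and 83.3-fold) and had an H3K27ac peak of replicate 1 alone. The members at chr13:50322401-50325009 (50.1 and 44.1-fold) and at chr13:50348991-50352159 (24.3 and 38.8-fold) had none. The fetuses thus did not keep 1 order over these members, since replicate 1 was the higher in one of them.

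The member in the sweep region of LCORL, a transcription factor gene linked to body size, lay at chr6:37504915-37506518. Its H3K4me3 was enriched 54.8 and 66.7-fold with no H3K27ac peak, and the nearest joint H3K27ac region lay 736 bp away. The member whose sweep region lies nearest to SOCS2, an inhibitor of growth hormone and cytokine signalling, lay at chr3:129737346-129739155. It was the strongest of the 7, at 69.7 and 101-fold, and had H3K27ac peaks in both libraries (44.7 and 43.2-fold) with an FDR of 9.12 and 16.1%.

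Zinc finger genes of the ZNF family were looked at after the values had been seen. Sweep regions that name one held 4 H3K4me3 regions under 8000 bp, and all 4 were members without an H3K27ac peak in either library. Such members made up 12.8% of all 14729 regions and 23 of the 189 regions in sweep regions. Beside ZNF746 and ZNF777 they lay at chr4:111834396-111835551 (44.4 and 56.8-fold) and at chr4:111876721-111878085 (52.5 and 69.4-fold). The member in the region of SMIM3 and ZNF300 lay at chr5:59746325-59753879 (30.5 and 36.3-fold), and that nearest ZNF852 at chr19:16267276-16274658 (50.9 and 55.02-fold). With 4 regions, the count is given as it stands.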

How the data were processed

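ChIP-Seq of H3K4me3 and H3K27ac was analysed in 2 libraries each. Per the labels and the methods, the authors mapped reads to Oar_v3.1 with CLC Genomics Workbench 7.0 and ran the peak caller MACS 1.4.2 on every library separately (p cutoff 1e-05, duplicates reduced to 1) against 1 pooled input. The deposited peak files give per peak the count of tags, a score (negative log10 of the p-value, scaled), a ratio of fold enrichment against the input, and the FDR in percent. The joint lists the authors deposited hold positions. Peaks with an FDR up to 1% that overlapped between replicates, once merged, gave each of the 16098 joint H3K4me3 regions. Per-library H3K27me3 values (2 files) were left out, as the labels describe no such sample.

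Lists were overlapped by at least 1 bp. A region took the strongest fold enrichment and the summed tags of its peaks in each library, and the strongest H3K27ac peak by score at any FDR. At an FDR up to 10%, the same merging of H3K27ac peaks gave 35265 of the 35266 regions of the joint H3K27ac list. The methods of the study state stricter FDR limits than these for both marks, and the limits used here are those that rebuild the deposited lists. Intervals are 95% Wilson intervals. The named regions are the 6 members of highest fold enrichment, the 3 of most tags, the 3 longest and shortest, the 3 on each side of the length limit, the 6 of highest H3K27ac score, the 5 farthest from joint H3K27ac and those in sweep regions of the genes of the main sweep table. Members, lists and rules were chosen with earlier results of these data known. Alternatives covered overlap, distance, FDR, length, chromosomes and the use of 1 library. The input held fewer tags than the other libraries, so the fold enrichment and FDR rest on few input tags. The overlap code was tested on simulated data. Scripts ran under Python 3.11.15 with pandas 2.3.3, numpy 2.4.6, matplotlib 3.10.9 and scipy 1.17.1.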

Additional observations from a re-analysis of the deposited data

How the results depend on the processing

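The number of members, 4803, fell to 2930 when no mark was allowed within 5 kb and to 1884 when no per-library H3K27ac peak was allowed. It was 13 of 31 regions at an H3K4me3 FDR of 0.1% and 13969 with H3K4me3 peaks of every FDR. With 1 H3K4me3 library alone it was 5835 to 8338, the higher without replicate 2. The share of members, 32.6%, became 35.6% when a mark had to cover 50% of the region, 26.5% and 19.9% with none within 1 and 5 kb, and 12.8% and 26.3% with no H3K27ac peak of any or of both libraries. It was 41.9% and 44.6% at the FDR of 0.1% and at every FDR, 31.6% with chromosome X added, 31.6% with chromosome 14 left out (an alternative added after the data were seen), and 33.8 to 38.4% with 1 library. Median H3K4me3 fold enrichment moved by more than the SD between replicates (9.52) only with peaks of every FDR (34.5 and 40.4-fold in replicates 1 and 2) and, in replicate 2, at the FDR of 0.1% (88.6-fold). Median length was 2400 bp with none within 1 kb, 1896 and 2049 bp with no H3K27ac peak of any or of both libraries, 2378 bp with no length limit, 1972 bp under 4000 bp, 6034 and 1636 bp at the FDR of 0.1% and at every FDR, and 1772 to 2130 bp with 1 library. Members with an H3K27ac peak of replicate 1 alone outnumbered those of replicate 2 alone in each alternative that left any, except at the FDR of 0.1% (0 and 2). Each alternative used the same H3K27ac peaks of the same libraries, so it cannot check the imbalance between those libraries. Apart from what each alternative removes or adds by its construction, the cause was not tested.

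No paired analysis was possible because the results, also those that set one fetus against the other, come from no test. The alternative that needs annotated start sites was not run, as no annotation of Oar_v3.1 was used.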

Other observations

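Chromosome X was outside the rule. Of its 710 H3K4me3 regions under 8000 bp, 611 (86.1%) overlapped the joint H3K27me3 list, and 71 (10.0%) had neither mark. Of these 71, 49 had no H3K27ac peak in either library. Over all 71 the median H3K4me3 fold enrichment was 39.1 in replicate 1 and 52.6 in replicate 2, with a median length of 3063 bp.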
